A study of Mus musculus with 9 samples.

Results

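The 10 genes described here mark T cells and natural killer (NK) cells and the granules with which they kill: the T cell receptor subunits Cd3g and Cd3e, the coreceptors Cd8a and Cd4, the NK cell receptors Ncr1 and Klrk1, and the granule genes Nkg7, Gzma, Gzmb and Prf1. They were taken by symbol out of 19938 genes on the array, and where a gene had several probe sets the brightest over all 9 arrays was to be used, but each of the 10 had 1 probe set. RNA of whole liver was measured on 1 Affymetrix gene array per sample, in 3 groups of 3 male mice aged 8 to 9 weeks on a C57/BL6 background. The first group combined a hepatocyte-specific NEMO knockout with a constitutive loss of p21, and is called the labelled double knockout below. The second carried the hepatocyte-specific NEMO knockout alone, and the third was wild type. The promoter that drove the deletion of NEMO is not given in the labels, no group lacked p21 alone, and the loss of p21 by label also includes the lymphocytes of those mice. The labels do not say whether the wild type mice were littermates.

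Ikbkg encodes NEMO, the non-catalytic part of the kinase complex that switches on NF-κB. T cells recognise antigen through a receptor whose signals pass through the CD3 chains, with CD8 as the coreceptor of cytotoxic T cells and CD4 as that of helper T cells, while NK cells respond through germline-encoded receptors such as NKp46 and NKG2D. Both kinds of killer cell store perforin, which opens the target membrane, and granzymes, the proteases that enter and start cell death. The mouse liver normally holds NK cells, T cells and NKT cells, which share several of these markers. Other cells can carry some of the 10 as well: dendritic cells can express Cd8a, and T cells can express Klrk1 and Nkg7.

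Values are deposited log2 expression values, so a difference of 1 is a doubling of signal. Levels of different probe sets were not set against each other, because a probe set's signal also depends on its probes. The mean over all 9 arrays was at least 5 for 8 of the 10 genes and below 5 for Gzma and Klrk1. The table carries no detection calls, so how far these low signals stood above background was not analysed here. In liver tissue, fewer cells of a type and less RNA per cell cannot be told apart.

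Array medians lay between 6.47 and 6.48 in wild type and between 6.52 and 6.58 in the 2 knockout groups. The targeted gene Ikbkg averaged 8.27 ± 0.18 in the labelled double knockout, 8.35 ± 0.12 in the NEMO knockout and 8.87 ± 0.13 in wild type (SD, n = 3 each), a fall of 0.52 on the log2 scale in the NEMO knockout against wild type (limma, adjusted p = 0.0184), which lost its call without either of 2 wild type arrays (replicate 2, 0.0625, or replicate 3, 0.0729) or either of 2 NEMO knockout arrays (replicate 1, 0.0524, or replicate 3, 0.0647). The only Cdkn1a probe set, which is also annotated to 4930567H12Rik, averaged 10.78 ± 0.56 in the labelled double knockout, 10.10 ± 0.53 in the NEMO knockout and 8.67 ± 0.91 in wild type (SD, n = 3 each). Its signal was called higher in the labelled double knockout than in wild type (difference 2.11, SE 0.45, limma, adjusted p = 0.0194). Against the NEMO knockout it was not called (difference 0.68, SE 0.45, limma, adjusted p = 0.803). Cdkn1a encodes p21, and this signal was not lower in the mice labelled as lacking it, so their label was not borne out by this probe set. Where its probes lie relative to the deleted part was not analysed here.

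Promoter windows of the 3 genes that were called higher in the NEMO knockout (below) show the sequence next to their start sites. Each covers the 250 bases before the RefSeq start (assembly GRCm38.p6), printed in the direction of the gene. Capitals mark exact matches, on either strand, to core letters bound by 3 factor families that act in lymphocytes. These are RUNX (TGTGGT or its reverse complement ACCACA), ETS (AGGAAG or CTTCCT) and T-box (AGGTGT or ACACCT). The Cd3g window is chr9:44980432-44980681 on the minus strand, that of Nkg7 is chr7:43436888-43437137 on the plus strand, and that of the first Ncr1 start site is chr7:4337465-4337714 on the plus strand.
Cd3g: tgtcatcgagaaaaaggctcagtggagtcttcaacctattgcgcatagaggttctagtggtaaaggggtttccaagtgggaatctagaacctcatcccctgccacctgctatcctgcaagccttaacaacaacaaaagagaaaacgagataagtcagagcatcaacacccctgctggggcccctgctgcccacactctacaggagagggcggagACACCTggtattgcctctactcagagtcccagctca
Nkg7: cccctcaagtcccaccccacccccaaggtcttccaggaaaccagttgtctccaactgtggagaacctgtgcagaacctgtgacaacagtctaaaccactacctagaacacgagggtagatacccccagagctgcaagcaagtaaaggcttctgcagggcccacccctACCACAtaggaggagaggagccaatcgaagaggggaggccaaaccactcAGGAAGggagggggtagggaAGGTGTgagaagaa
Ncr1: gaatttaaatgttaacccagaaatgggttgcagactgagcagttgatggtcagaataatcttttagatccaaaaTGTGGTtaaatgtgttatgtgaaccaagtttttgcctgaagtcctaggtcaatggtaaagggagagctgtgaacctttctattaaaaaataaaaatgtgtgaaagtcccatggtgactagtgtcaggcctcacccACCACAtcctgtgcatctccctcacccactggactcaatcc

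The Cd3g window held 1 T-box match, starting 36 bases before the gene. Nkg7 held all 3 kinds, with RUNX at 83, ETS at 34 and T-box at 14 bases before the start. Ncr1 held RUNX matches at 176 and 41 bases before its first start site. No match in these 3 windows shared bases with one of another family. Of the 9 genes with a window (Cd4 had none in the table used), 6 held a RUNX, 3 an ETS and 5 a T-box match, while 14.05%, 29.5% and 11.8% of all 32851 windows of the same length did. A match of 6 letters describes the sequence and is not evidence of binding.

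The first comparison asked how the T and NK cell genes stood in livers whose hepatocytes lack NEMO. Cd3g, Nkg7 and Ncr1 rose in the NEMO knockout against wild type, by 1.88-fold, 1.66-fold and 1.66-fold. None of the 10 fell, and 7 did not pass the test, among them all the granzyme and perforin genes and both coreceptors. Thus 3 of 10 were called, all higher (limma, adjusted p under 0.05), against 7.68% of all probe sets called in this comparison, 5.66% higher and 2.02% lower. The arrays of the NEMO knockout lay wholly above those of wild type for 5 genes (Cd3g, Cd3e, Cd8a, Nkg7 and Ncr1) and wholly below for none, where 11.4% and 11.8% of all probe sets did so. The median difference of the 10 was 0.35, against -0.039 over all probe sets, and it was 0.21 without NEMO knockout replicate 3.

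**Figure D1:**
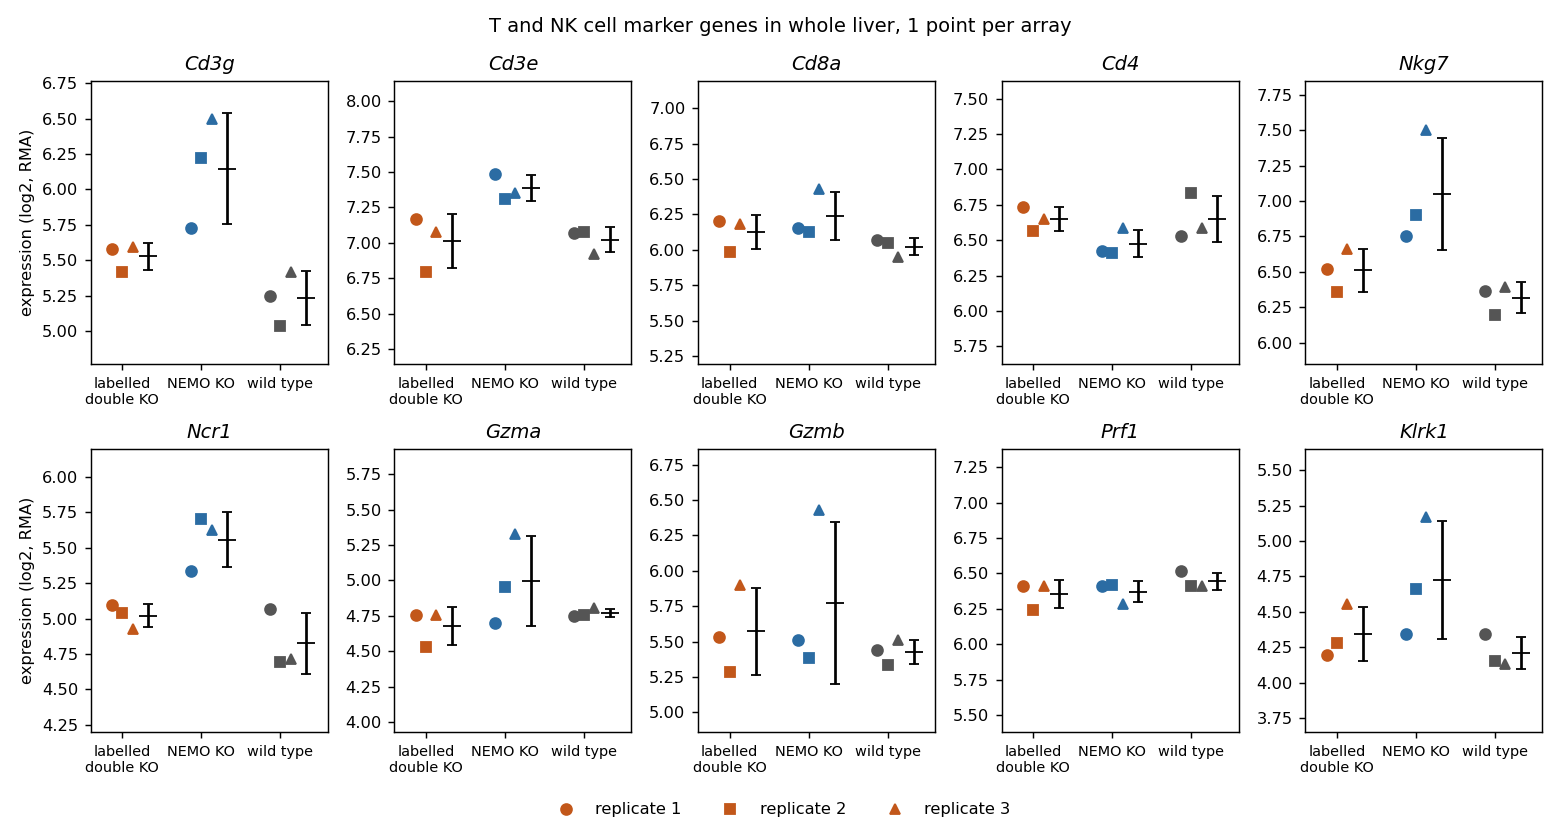
Expression (log2, RMA) of the 10 genes in each of the 9 arrays, with the labelled double knockout (orange), the NEMO knockout (blue) and wild type (grey) from left to right; the cross line and bars give mean ± SD (n = 3), all panels span the same number of log2 units, and the axes do not start at 0. The NEMO knockout points of Cd3g, Cd3e, Nkg7 and Ncr1 lie above all 6 other points, while Prf1 differs by 0.090 or less between any 2 group means.

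Cd3g encodes the gamma chain of CD3. Its level was 5.72, 6.22 and 6.50 in the NEMO knockout, against 5.25, 5.03 and 5.42 in wild type. Every NEMO knockout array was above every wild type array, and the first was the closest to them. The difference was 0.91 ± 0.18 (SE; 95% interval 0.52 to 1.31; limma, adjusted p = 0.0130). Without wild type replicate 2 it was 0.81 (adjusted p = 0.0532), and without NEMO knockout replicate 2 it was 0.88 (adjusted p = 0.0511).

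Cd3e, the epsilon chain that pairs with gamma and delta, read 7.49, 7.31 and 7.35 in the NEMO knockout, against 7.07, 7.08 and 6.92 in wild type. The groups did not overlap, and the spread within each was small. The difference of 0.36 ± 0.10 (SE; 95% interval 0.13 to 0.59) missed the threshold after adjustment over all probe sets (limma, adjusted p = 0.0657). It passed without replicate 2 of the labelled double knockout, whose arrays enter the estimate of spread (0.0270).

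The coreceptors gave no call. Cd8a stood at 6.15, 6.13 and 6.43 in the NEMO knockout, against 6.07, 6.05 and 5.95 in wild type, a difference of 0.21 ± 0.097 (SE; 95% interval -0.0049 to 0.43; limma, adjusted p = 0.257). Its groups did not overlap, but 2 of the 3 NEMO knockout arrays stood close to the highest wild type array. Cd4 stood at 6.43, 6.41 and 6.58 in the NEMO knockout, against 6.53, 6.84 and 6.59 in wild type, a difference of -0.18 ± 0.094 (SE; 95% interval -0.39 to 0.036; limma, adjusted p = 0.3445). Only Cd4 and Prf1 among the 10 had a difference below 0, and the Cd4 groups overlapped.

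Among the NK cell receptors, Ncr1, which encodes the activating receptor NKp46, was at 5.33, 5.70 and 5.63 in the NEMO knockout, against 5.07, 4.69 and 4.71 in wild type. All NEMO knockout arrays were higher than all wild type arrays. The difference was 0.73 ± 0.12 (SE; 95% interval 0.45 to 1.01; limma, adjusted p = 0.00714). It was called under each of the 18 alternatives run, with an adjusted p of at most 0.0345.

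Klrk1, which encodes the activating receptor NKG2D, was at 4.34, 4.66 and 5.17 in the NEMO knockout, against 4.34, 4.15 and 4.13 in wild type. The groups met at 4.34, where NEMO knockout replicate 1 and wild type replicate 1 lay. The difference of 0.52 ± 0.19 (SE; 95% interval 0.096 to 0.94) was not called (limma, adjusted p = 0.149). Without NEMO knockout replicate 1 it was 0.71 and passed (adjusted p = 0.0357), and without replicate 3 it was 0.29.

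The granule genes did not move as a block. Nkg7, a granule membrane protein of NK cells and cytotoxic T cells, had 6.75, 6.90 and 7.50 in the NEMO knockout, against 6.36, 6.19 and 6.39 in wild type, with no overlap. Its difference was 0.73 ± 0.17 (SE; 95% interval 0.34 to 1.12; limma, adjusted p = 0.0325). The Nkg7 call was lost in 7 of the 18 alternatives: without wild type replicate 1 (0.0792), 2 (0.112) or 3 (0.0773), without NEMO knockout replicate 2 (0.0561), without replicate 1 of the labelled double knockout (0.0516), when the fit held the NEMO knockout and wild type arrays alone (0.0747), and with the presumed control probe sets also tested (0.0594). In all of them it stayed above 0, between 0.51 and 0.88 over the 18.

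Gzma, the tryptase granzyme A, had 4.70, 4.95 and 5.33 in the NEMO knockout, against 4.75, 4.75 and 4.80 in wild type (difference 0.23 ± 0.14, SE; 95% interval -0.091 to 0.54; limma, adjusted p = 0.424). Gzmb, which encodes the caspase-activating granzyme B, had 5.51, 5.39 and 6.43 in the NEMO knockout, against 5.44, 5.34 and 5.51 in wild type (difference 0.35 ± 0.25, SE; 95% interval -0.22 to 0.92; limma, adjusted p = 0.502). In both, the highest value came from NEMO knockout replicate 3, and the other NEMO knockout arrays overlapped wild type for Gzmb. Without that array the difference was 0.058 for Gzma and 0.020 for Gzmb. Prf1, the perforin gene, had 6.41, 6.42 and 6.29 in the NEMO knockout, against 6.51, 6.41 and 6.41 in wild type (difference -0.073 ± 0.073, SE; 95% interval -0.24 to 0.092; limma, adjusted p = 0.638). The Prf1 interval reached up to 0.092, whereas that of Gzmb leaves room for nearly a doubling. However, Prf1 had the identical value, 6.41, on 4 of the 9 arrays, which lay in all 3 groups. How far such repeats narrow its interval was not tested.

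**Figure D2:**
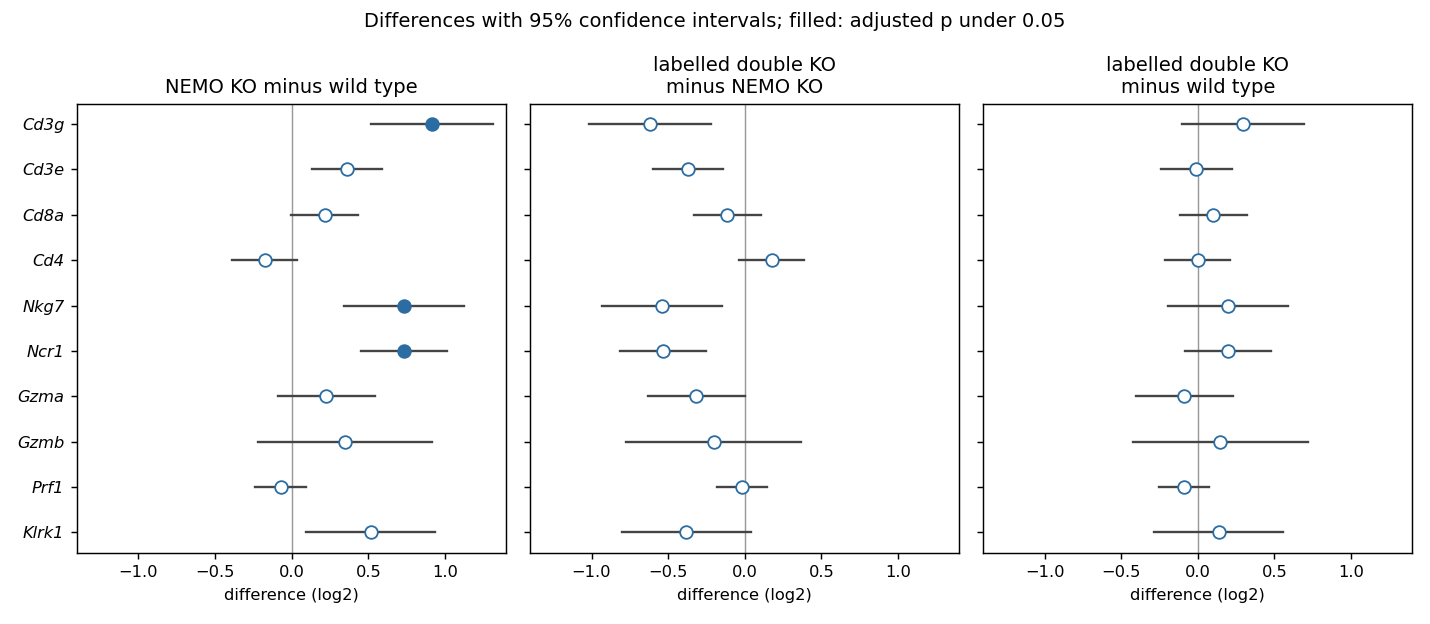
Difference in log2 expression of each gene (point) with its 95% confidence interval (line) in the 3 comparisons, from the limma fit of all 9 arrays; filled points passed an adjusted p of 0.05. Filled points appear for Cd3g, Nkg7 and Ncr1 in the NEMO knockout against wild type and nowhere else, and in the comparison of the labelled double knockout with the NEMO knockout 9 of 10 points lie below 0.

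The second comparison asked whether the further loss of p21 by label went with other levels of the same genes. None of the 10 was called in the labelled double knockout relative to the NEMO knockout (limma, lowest adjusted p = 0.212, for Ncr1), where 0.197% of all probe sets were called, 0.0864% higher and 0.111% lower. Values below 0 were found for 9 of 10 genes, with Cd4 the exception, where 51.4% of all probe sets were above 0. An unadjusted p under 0.05 (limma) was found for 4 of the 10, and for 2158 of all 28939 probe sets. The arrays of the labelled double knockout lay wholly below those of the NEMO knockout for Cd3g, Cd3e, Nkg7 and Ncr1 and wholly above for none, where 5.75% and 4.99% of all probe sets did so. The median of the 10 was -0.34, against 0.0033 over all probe sets, and it was -0.15 without NEMO knockout replicate 3. This comparison shares the NEMO knockout arrays with the first, so a low or high NEMO knockout value enters both with opposite sign.

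Among the receptor genes, Cd3g was 5.58, 5.42 and 5.59 in the labelled double knockout, against 5.72, 6.22 and 6.50 in the NEMO knockout. The difference was -0.62 ± 0.18 (SE; 95% interval -1.02 to -0.22; limma, adjusted p = 0.362). The groups were separate, with a gap between 5.59 and 5.72. Cd3e was 7.17, 6.80 and 7.07 in the labelled double knockout, against 7.49, 7.31 and 7.35 in the NEMO knockout, a difference of -0.37 ± 0.10 (SE; 95% interval -0.60 to -0.14; limma, adjusted p = 0.332). Cd8a was 6.21, 5.99 and 6.18 in the labelled double knockout, against 6.15, 6.13 and 6.43 in the NEMO knockout (difference -0.11 ± 0.097, SE; 95% interval -0.33 to 0.11; limma, adjusted p = 0.862). For Cd8a the groups overlapped, and the interval spans 0. Cd4 was 6.73, 6.57 and 6.65 in the labelled double knockout, against 6.43, 6.41 and 6.58 in the NEMO knockout (difference 0.18 ± 0.094, SE; 95% interval -0.036 to 0.39; limma, adjusted p = 0.727).

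For the NK cell receptor gene Ncr1 the labelled double knockout read 5.09, 5.04 and 4.93, against 5.33, 5.70 and 5.63 in the NEMO knockout. The difference was -0.53 ± 0.12 (SE; 95% interval -0.82 to -0.25; limma, adjusted p = 0.212), with separate groups. Klrk1 read 4.19, 4.28 and 4.56 in the labelled double knockout, against 4.34, 4.66 and 5.17 in the NEMO knockout (difference -0.38 ± 0.19, SE; 95% interval -0.80 to 0.039; limma, adjusted p = 0.698), and its groups overlapped.

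Of the granule genes, Nkg7 was 6.52, 6.36 and 6.66 in the labelled double knockout, against 6.75, 6.90 and 7.50 in the NEMO knockout (difference -0.54 ± 0.17, SE; 95% interval -0.93 to -0.15; limma, adjusted p = 0.475). Its groups were separate by less than 0.1. Gzma was 4.76, 4.53 and 4.75 in the labelled double knockout, against 4.70, 4.95 and 5.33 in the NEMO knockout (difference -0.32 ± 0.14, SE; 95% interval -0.63 to 0.0013; limma, adjusted p = 0.671). Gzmb was 5.53, 5.29 and 5.90 in the labelled double knockout, against 5.51, 5.39 and 6.43 in the NEMO knockout (difference -0.20 ± 0.25, SE; 95% interval -0.77 to 0.37; limma, adjusted p = 0.917). Without NEMO knockout replicate 3 the Gzmb difference was 0.13, on the other side of 0. Prf1 was 6.41, 6.24 and 6.41 in the labelled double knockout, against 6.41, 6.42 and 6.29 in the NEMO knockout (difference -0.017 ± 0.073, SE; 95% interval -0.18 to 0.15; limma, adjusted p = 0.983).

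The third comparison set the labelled double knockout against wild type. None of the 10 was called (limma, lowest adjusted p = 0.412, for Cd3g), while 9.32% of all probe sets were called, 5.81% higher and 3.51% lower. None of the 10 had an unadjusted p under 0.05 (limma), which 6068 of all 28939 probe sets had. All 10 pairs of groups overlapped, where 11.6% of all probe sets lay wholly above wild type and 13.5% wholly below. The median of the 10 was 0.12, against -0.029 over all probe sets, and it was 0.014 without replicate 3 of the labelled double knockout and 0.054 after array median centring. The largest difference was that of Cd3g, 0.29 ± 0.18 (SE; 95% interval -0.10 to 0.69), followed by Ncr1 with 0.20 ± 0.12 (95% interval -0.084 to 0.48) and Nkg7 with 0.19 ± 0.17 (95% interval -0.20 to 0.59). For these 3 genes each array of the labelled double knockout was above the wild type mean. Cd3e was closest to wild type among the receptor subunits, at -0.0094 ± 0.10 (95% interval -0.24 to 0.22), and Cd4 differed by 0.00033 ± 0.094 (95% interval -0.21 to 0.21). The remaining genes had differences between -0.090 (Gzma and Prf1) and 0.15 (Gzmb). These intervals do not show that the groups were alike: for Cd3g a difference of up to 0.69 was compatible with the fit.

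In the order of the group means, 6 genes (Cd3g, Cd8a, Nkg7, Ncr1, Gzmb and Klrk1) ran from the NEMO knockout, the highest, through the labelled double knockout to wild type. For Cd3e and Gzma the labelled double knockout was lowest and wild type between. Cd4 was highest in the labelled double knockout and lowest in the NEMO knockout, and Prf1 was highest in wild type and lowest in the labelled double knockout. The lower pair of neighbours did not differ beyond its spread in any of these orders that put the NEMO knockout first, since all 10 differences between the labelled double knockout and wild type had intervals that span 0. The step between the NEMO knockout and the labelled double knockout had an interval without 0 for Cd3g, Cd3e, Nkg7 and Ncr1, though without a call after adjustment, and it spanned 0 for the other 6 genes. All 3 intervals of Cd4 and of Prf1 spanned 0.

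Replicate 3 stood apart within the NEMO knockout. It was the highest of the 3 NEMO knockout arrays for 7 of the 10 genes, and the mean of the 10 genes was 5.88, 6.01 and 6.32 on its replicates 1, 2 and 3. The mean was 5.82, 5.65 and 5.87 in the labelled double knockout and 5.74, 5.65 and 5.68 in wild type. Replicate 2 of the labelled double knockout was the lowest of its group for 8 of 10 genes. Without NEMO knockout replicate 3, the 3 called genes kept their calls against wild type, with differences of 0.74 for Cd3g (limma, adjusted p = 0.0395), 0.51 for Nkg7 (0.0373) and 0.70 for Ncr1 (0.0345). Against the NEMO knockout without that array, the labelled double knockout differed by -0.44 for Cd3g and -0.31 for Nkg7. The same array had the highest mean of its group for pan-leukocyte markers (8.55, against 8.24 and 8.38 on replicates 1 and 2), NK cell receptors (5.41, against 5.17 and 5.22) and neutrophil markers (5.97, against 5.51 and 5.54), but not for macrophage and monocyte markers (8.93, against 8.77 and 9.01). The part of these in the higher values of the T and NK cell genes was not tested.

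Other genes of the same pathways were read from 12 lists with 182 genes, of which 167 were measured. Among 17 measured genes of the T cell receptor complex and T cell signalling, 1 rose in the NEMO knockout against wild type, Themis, which encodes a signalling protein of developing T cells, by 1.42 ± 0.17 (SE; limma, adjusted p = 0.00129). The median of this list was 0.087 (between 0.024 and 0.12 under other scalings of the arrays). Of its 17 differences 14 were above 0, as were 38.0% of those of all probe sets in this comparison. The receptor complex genes Cd3d (0.081 ± 0.088) and Cd247 (0.087 ± 0.082, SE) were not called (limma, adjusted p = 0.669 and 0.616). Themis also rose in the labelled double knockout against wild type, by 0.90 ± 0.17 (SE; limma, adjusted p = 0.0105), where it was again the single call and the median was 0.011 (between -0.053 and 0.017 under other scalings). Both Themis calls held with each array left out in turn. Against the NEMO knockout no gene of the list was called in the labelled double knockout, with 2 of 17 differences above 0 and a median of -0.098 (-0.055 without replicate 2 of the labelled double knockout); the widest were Themis at -0.52 ± 0.17 and the costimulatory receptor gene Cd27 at -0.28 ± 0.092 (SE).

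**Figure D3:**
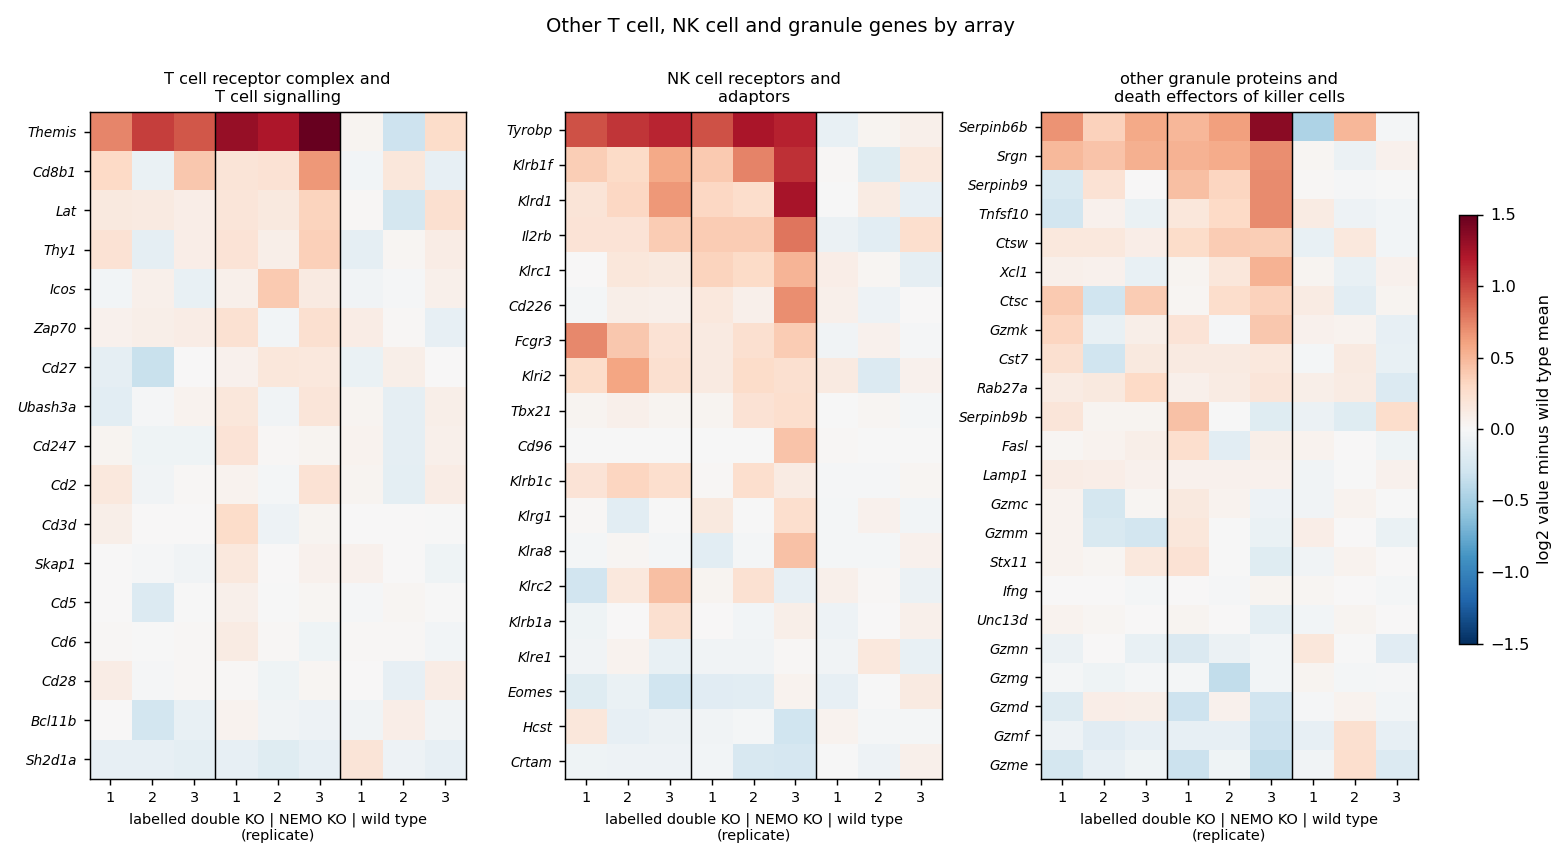
Log2 value minus the wild type mean (colour scale, clipped at its ends) of each measured gene in 3 lists, by array, with the labelled double knockout, the NEMO knockout and wild type from left to right and genes ordered by their NEMO knockout against wild type difference. Themis and Tyrobp are high on all 6 knockout arrays, and the column of NEMO knockout replicate 3 is the strongest for several NK cell receptor genes.

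Of 19 measured NK cell receptor and adaptor genes, 3 rose in the NEMO knockout against wild type, 15 had a difference above 0, and the median was 0.14 (between 0.073 and 0.18 under other scalings). Tyrobp, the signalling adaptor DAP12 of NK cells and also of myeloid cells, rose by 1.11 ± 0.091 (SE; limma, adjusted p = 0.000250). Klrb1f, an NKR-P1 family receptor gene, rose by 0.75 ± 0.17 (0.0245), and Klrc1, which encodes the inhibitory receptor NKG2A, by 0.38 ± 0.089 (0.0318). The count fell to 1 without wild type replicate 2, without NEMO knockout replicate 3 and when the fit held the NEMO knockout and wild type arrays alone. The call of Klrb1f also ended if wild type replicate 1 or NEMO knockout replicate 2 was left out, and that of Klrc1 without wild type replicate 3, NEMO knockout replicate 1 or replicate 3 of the labelled double knockout. In the labelled double knockout, Tyrobp rose against wild type by 1.06 ± 0.091 (SE; limma, adjusted p = 0.000240), the single call of 19, with a list median of 0.060 (between -0.0036 and 0.11 under other scalings). None of the 19 was called against the NEMO knockout, with a median of -0.092 that was no longer below 0 without NEMO knockout replicate 3 and was -0.14 without replicate 1; Klrb1f stood at -0.34 ± 0.17 and Klrc1 at -0.27 ± 0.089 (SE).

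Of 23 other granule proteins and death effectors, 3 rose in the NEMO knockout against wild type and the median was 0.064 (between 0.0021 and 0.11 under other scalings, and 0.0081 without NEMO knockout replicate 1). They were Srgn, the granule proteoglycan serglycin that myeloid cells also make (0.59 ± 0.072, SE; limma, adjusted p = 0.00140), Serpinb9, an inhibitor of granzyme B (0.49 ± 0.12; 0.0430), and Ctsw, a cysteine protease of cytotoxic lymphocytes (0.34 ± 0.079; 0.0289). The count was 1 without wild type replicate 1, wild type replicate 3 or NEMO knockout replicate 3, and also under array median centring and quantile normalization. Serpinb9 further lost its call without wild type replicate 2, NEMO knockout replicate 1 or replicate 3 of the labelled double knockout, and Ctsw without NEMO knockout replicate 2. Srgn rose in the labelled double knockout against wild type by 0.48 ± 0.072 (SE; limma, adjusted p = 0.00325), the single call of 23. Against the NEMO knockout none was called, with the death ligand gene Tnfsf10 at -0.50 ± 0.14 and Serpinb9 at -0.49 ± 0.12 (SE).

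The ligands that Klrk1's product recognises were represented by 2 of 8 genes, Raet1d and H60b, and neither was called in any comparison. Raet1d averaged 7.85 in the labelled double knockout, 8.27 in the NEMO knockout and 8.46 in wild type, and its difference between the NEMO knockout and wild type was -0.19 ± 0.50 (SE).

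Chemokines, their receptors and cytokines that recruit or sustain T and NK cells gave 6 calls of 22 in the NEMO knockout against wild type, all higher, with a median of 0.16 (0.097 after array median centring). The chemokine genes Ccl3 (1.68 ± 0.26, SE; limma, adjusted p = 0.00437), Ccl5 (1.09 ± 0.24; 0.0211) and Cxcl16 (0.99 ± 0.12; 0.00139) and the fractalkine receptor gene Cx3cr1 (1.0 ± 0.17; 0.00733) had the largest rises. Ccl5, which T and NK cells themselves secrete, lost its call without wild type replicate 2 or 3. The 16 genes not called included Cxcl9 (0.094), Cxcl10 (0.41), Cxcl11 (-0.0095), Ccl4 (-0.022) and the chemokine receptor gene Cxcr3 (0.15). In the labelled double knockout against wild type 4 of 22 rose: Ccl3 by 1.39 ± 0.26, Cx3cr1 by 0.79 ± 0.17, Cxcl16 by 0.74 ± 0.12 and the interleukin 7 receptor gene Il7r by 0.64 ± 0.14 (SE; limma, adjusted p = 0.00991, 0.0198, 0.00510 and 0.0213). The count was 2 without wild type replicate 2, and the calls of Cx3cr1 and Il7r each also ended without replicate 2 or replicate 3 of the labelled double knockout, that of Il7r without wild type replicate 1 too. Against the NEMO knockout, 20 of 22 differences were below 0 with none called and a median of -0.18 (-0.072 without NEMO knockout replicate 3 and -0.11 without replicate 1 of the labelled double knockout); the chemokine genes Cxcl9 (-0.74 ± 0.29) and Ccl5 (-0.62 ± 0.24, SE) were the widest.

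Of 15 checkpoint receptor and regulatory T cell genes, 3 rose in the NEMO knockout against wild type: Cd274, the ligand PD-L1 (1.0 ± 0.16, SE; limma, adjusted p = 0.00591), Entpd1, the ectonucleotidase CD39 (0.95 ± 0.16; 0.00629), and Havcr2, the receptor TIM-3 (0.59 ± 0.12; 0.0154). The call of Havcr2 ended without wild type replicate 1 or 3. These genes are also expressed outside T cells. The list median was 0.061 (between -0.00095 and 0.082 under other scalings). The 12 genes not called included Pdcd1 (-0.050), Lag3 (0.023), Tigit (0.045), Ctla4 (0.025), Foxp3 (0.020) and Il2ra (-0.056). In the labelled double knockout, Entpd1 (0.85 ± 0.16; 0.00951) and Tox, a transcription factor of developing and exhausted T cells (0.66 ± 0.13; 0.0115), rose against wild type. The list median was 0.049 there (between -0.015 and 0.063 under other scalings). The 13 genes not called included Pdcd1 (-0.052), Lag3 (-0.0082) and Tigit (0.049). Against the NEMO knockout no gene of this list was called, with Cd274 at -0.53 ± 0.16 and Tox at 0.49 ± 0.13 (SE).

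Markers of other leukocytes differed between lists in how they stood in the 2 knockout groups. Against wild type, 9 of 12 pan-leukocyte genes rose in the labelled double knockout (median 0.65) and 11 of 12 rose in the NEMO knockout (median 0.86). Examples were Laptm5 (1.14 ± 0.11) and Cd52 (1.12 ± 0.11) in the labelled double knockout, where the count was 6 without its replicate 3, and Cd52 (1.34 ± 0.11), Cd53 (1.23 ± 0.077), Arhgdib (1.14 ± 0.14) and Laptm5 (1.12 ± 0.11, SE) in the NEMO knockout. The list mean lay at 8.19 to 8.28 in the labelled double knockout, 8.24 to 8.55 in the NEMO knockout and 7.51 to 7.61 in wild type, so both knockout groups were above every wild type array. Of 14 macrophage and monocyte genes, 10 rose in each of the 2 comparisons with wild type, with medians of 0.80 for the labelled double knockout and 0.78 for the NEMO knockout. Their list mean lay at 8.83 to 8.97 in the labelled double knockout, 8.77 to 9.01 in the NEMO knockout and 8.12 to 8.30 in wild type. For the labelled double knockout relative to the NEMO knockout, the median of macrophage and monocyte genes was 0.048 with 8 of 14 above 0, beside the -0.34 and 1 of 10 of the T and NK cell genes. With 1 array left out, the macrophage and monocyte median ran from -0.051 (without NEMO knockout replicate 1) to 0.12 (without NEMO knockout replicate 2), and was also below 0 without replicate 3 of the labelled double knockout (-0.0084). That of the T and NK cell genes ran from -0.40 to -0.15. Other leukocyte lists had medians below 0 in this comparison too. They were -0.18 for pan-leukocyte markers (1 of 12 above 0), -0.18 for neutrophil markers (0 of 12) and -0.12 for dendritic cell markers (4 of 12). B and plasma cell markers stood at 0.0040 (5 of 10). The differences between the lists were not tested.

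**Figure D4:**
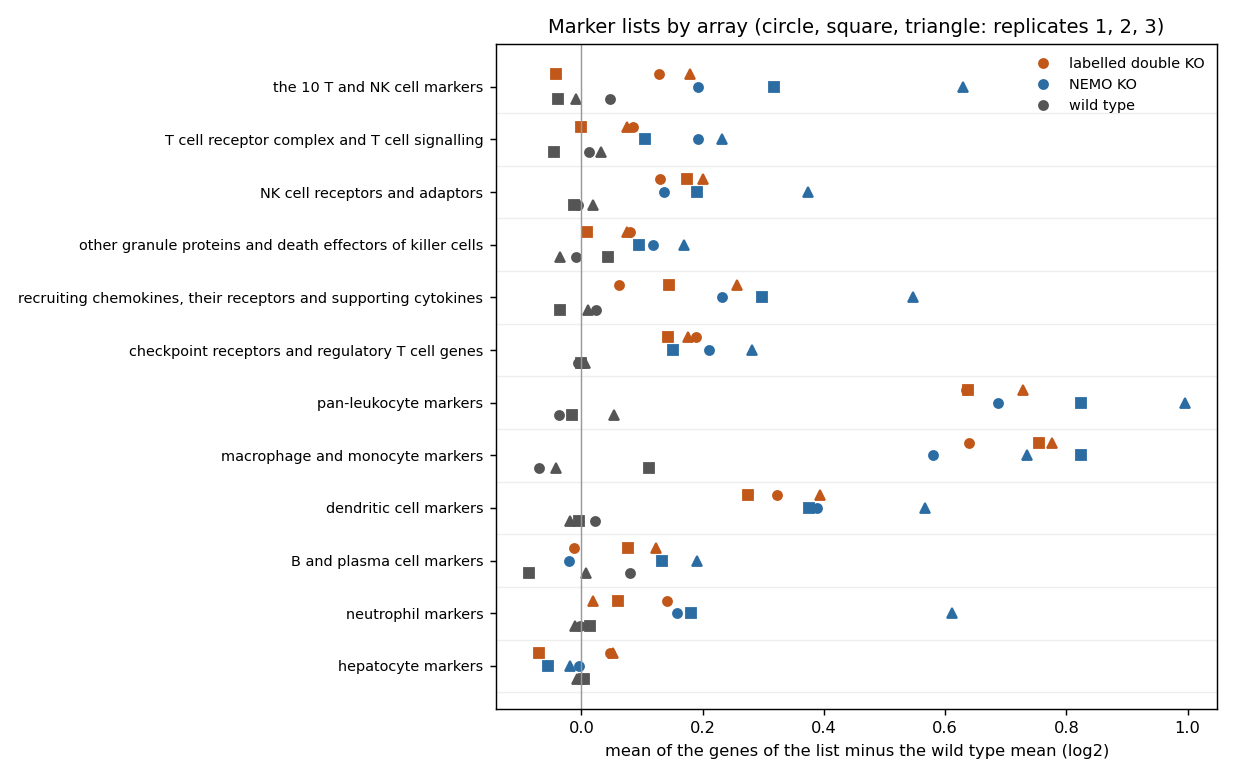
Mean of the measured genes of each list on each array minus the wild type mean (log2), with orange for the labelled double knockout, blue for the NEMO knockout and grey for wild type, and circle, square and triangle for replicates 1, 2 and 3; the list with 2 measured genes is left out. For the 10 T and NK cell genes all NEMO knockout points lie right of the others, while for macrophage and monocyte markers the points of the 2 knockout groups intermingle.

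Dendritic cell markers, which include cells that can carry Cd8a, gave 6 calls of 12 in the NEMO knockout against wild type, led by Itgax, the integrin CD11c (1.62 ± 0.17, SE; limma, adjusted p = 0.000707), and the chemokine receptor gene Ccr7 (0.60 ± 0.087; 0.00305). Their list mean lay at 6.33 to 6.45 in the labelled double knockout, 6.43 to 6.62 in the NEMO knockout and 6.03 to 6.07 in wild type. The count was 2 without wild type replicate 3, and in the labelled double knockout against wild type it was 3, or 1 without replicate 1 of the labelled double knockout. Not called in the NEMO knockout against wild type were Zbtb46 (-0.051), Batf3 (0.034), Itgae (0.037), Clec10a (0.23), Clec9a (0.44) and Cd209a (0.81). None of 10 B and plasma cell genes was called in any comparison, with list means of 5.48 to 5.61 in the labelled double knockout, 5.47 to 5.68 in the NEMO knockout and 5.40 to 5.57 in wild type. Of 12 neutrophil genes, 2 rose in the NEMO knockout against wild type, Retnlg (0.76 ± 0.18, SE; limma, adjusted p = 0.0309) and Csf3r (0.68 ± 0.090; 0.00207), and the list means were 5.38 to 5.50 in the labelled double knockout, 5.51 to 5.97 in the NEMO knockout and 5.35 to 5.37 in wild type. The Retnlg call ended without any 1 of the wild type arrays or without replicate 3 of the labelled double knockout. In the labelled double knockout against wild type, Csf3r rose by 0.36 ± 0.090 (SE; limma, adjusted p = 0.0346) and Mmp9, a gelatinase gene, fell by 0.53 (SE 0.14; 0.0386), the single gene called lower in any of the 12 lists. The Csf3r call ended without any 1 of the 6 arrays compared, and that of Mmp9 without any 1 array of the labelled double knockout, NEMO knockout replicate 2, or wild type replicate 1 or 3. All 12 neutrophil differences between the labelled double knockout and the NEMO knockout were below 0, with none called. The 9 measured hepatocyte genes, which check the labelled tissue, had list means between 13.18 and 13.30 on all arrays. The part of these other cells in the differences of the T and NK cell genes was not tested.

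To show which genes ran most like each of the 10, values over the 9 arrays were scaled to mean 0 and SD 1 and compared with 17012 other genes by their root mean square distance, on which uncorrelated patterns lie 1.41 apart. The nearest to Nkg7 was Ccl5 (0.19), which differed by 1.09 between the NEMO knockout and wild type, followed by Psmb8, an immunoproteasome subunit gene (0.28). Nearest to Cd3g were Lrrc49 (0.20), Wdfy4 (0.25) and Tmsb10 (0.25), and nearest to Ncr1 were Ntrk3 (0.23), Chrm3 (0.24) and Acap1 (0.32). Klrk1 ran closest to Naaa (0.24), and the gamma delta T cell receptor gene Trgv1 was among its 3 nearest (0.30). Cd8a had Cd8b1, which encodes the other chain of CD8, among its 3 nearest (0.32), behind Usp11 and Fut2 (both 0.28). Cd3e was nearest to Slfn4 (0.30), Gzma to Atp9a (0.23), Gzmb to Taf1d (0.32), Cd4 to Rad51d (0.26) and Prf1 to Asb18 (0.16). These distances rest on 9 arrays that share the group structure, so many of 17012 genes come near any pattern.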

How the data were processed

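The 9 arrays hold 1 log2 expression value per probe set and sample, deposited by the authors. They were made by RMA, per the submitters' processing notes, a method that subtracts background, quantile-normalizes the arrays and summarises each probe set by median polish. Its version was not given in the sources used here, nor was a genome build, and the log base is inferred from RMA and the values. Quantile normalization hides any general change in RNA, and median polish can repeat a value: Gzma, Gzmb, Klrk1 and Prf1 each had a value on more than 1 array. No 2 arrays were identical.

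Of 35556 probe sets, 6617 (18.6%) with identifiers below the first annotated one were taken as controls and left out. The other 28939 entered a limma fit (version 3.58.1, R 4.3.3) of all 9 arrays with 1 mean per group and moderated variances without a trend, and p-values were adjusted over all of them by Benjamini-Hochberg. A call is an adjusted p under 0.05, 2-sided. The fit was tested on simulated data. The platform annotation gave 1 symbol to 21789 probe sets, several to 1621 and none to 5529, and 21698 of the single symbols matched the NCBI gene table of GRCm38.p6. Genes that were not measured or had several symbols (Cdkn1a excepted) are not analysed here. The labels name the samples as separate, so p-values measure the spread between these arrays, whose small number limits the precision.

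The 10 genes and all lists were chosen with earlier results of these data known, and the lists are descriptive. Named are the 10 genes, Ikbkg and Cdkn1a, up to 4 called genes of each list and comparison with the largest difference (up to 2 where none was called), and the 3 nearest genes of each of the 10; not every gene so named is printed. Alternatives were each array left out, the replicate number as a block, and scaling by array median centring, quantile normalization or cyclic loess. The others were a minimum mean of 5, only the 2 groups compared, array weights and moderated variances with a trend. Last, the presumed control probe sets were also tested.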

Additional observations from a re-analysis of the deposited data

How the results depend on the processing

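Of the 10 genes, 3 were called in the NEMO knockout against wild type; leaving out 1 array gave counts from 1 to 4, with 1 without wild type replicate 2 and 1 without NEMO knockout replicate 2. The count was 3 with the replicate number as a block and 2 with the presumed control probe sets also tested. In both comparisons of the labelled double knockout, none of the 10 was called under any alternative. Over all probe sets, the calls of the NEMO knockout against wild type numbered 1382 to 2335 with 1 array left out (2222 with all; lowest without NEMO knockout replicate 3), those of the labelled double knockout relative to the NEMO knockout 10 to 44 (57), and those against wild type 1601 to 2720 (2696). For the labelled double knockout relative to the NEMO knockout there were 18 with the block, 31 with array median centring, 23 with only the 2 groups and 28 with the controls tested. Centring also moved the split of higher and lower calls: 1304 and 1169 against 1638 and 584 for the NEMO knockout against wild type, 1309 and 1661 against 1680 and 1016 for the labelled double knockout against wild type, and 17 and 14 against 25 and 32 between the knockouts. Cd3e also passed with only the 2 groups in the fit (limma, adjusted p = 0.0457).

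Differences near 0 changed sign. For the labelled double knockout against wild type, Cd3e was 0.012 after cyclic loess, and Cd4 was -0.064 after centring and -0.068 after quantile normalization. With 1 array left out, it ranged from -0.087 to 0.099 for Cd3e, from -0.061 to 0.093 for Cd4 and from -0.016 to 0.29 for Gzmb. Against the NEMO knockout it ranged from -0.40 to 0.13 for Gzmb, from -0.060 to 0.039 for Prf1, and from -0.17 to 0.0054 for Ikbkg. The cause was not tested. Gzma and Klrk1 have no value under the minimum mean of 5. Averaging the probe sets of a gene could change nothing, since each of the 10 has 1.

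The groups share replicate numbers, and the correlation of same-numbered arrays' deviations from their group means ran from -0.12 to 0.39. Between the 2 knockout groups it was 0.39, 0.083 and 0.25 for replicates 1, 2 and 3, against -0.30 to 0.11 for differently numbered arrays. Same-numbered pairs with a wild type array ran from -0.12 to 0.18. Whether same-numbered arrays belong together cannot be settled from these values. The block gave 3, 0 and 0 calls among the 10 genes in the 3 comparisons. With 3 arrays per group and low signals, the intervals of Gzma and Gzmb in the NEMO knockout against wild type hold both no difference and differences above 0.5, and that of Klrk1 runs from 0.096 to 0.94.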
